A study of Mus musculus with 16 samples.

Results

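The collagen chain genes encode the alpha chains from which every collagen is built. They were taken as all protein-coding mouse genes whose symbol reads Col, a number, a and a number, with nothing after it. This gave 44 genes of the 57180 in the count files, of which 21793 are protein-coding. They were sorted into 9 classes by the kind of structure their products form.

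RNA was taken from whole lungs of male fetuses at E14.5 (E counts embryonic days) and sequenced as 16 poly(A)-selected libraries. The fetuses belonged to C57BL/6J (B6) and A/J, both inbred strains. Dams of each strain received BMS493, which holds all retinoic acid receptors in their repressing state (an inverse pan-agonist), or corn oil alone. BMS493 was given by mouth at 3.75 µg per g of body weight per day from E9.5. The 4 groups were thus B6 control, B6 BMS493, A/J control and A/J BMS493, with 4 libraries each, and no group carried a transgene or a deletion. Whether any of the fetuses were littermates is not in the labels, so p-values measure the spread between these libraries only.

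A collagen molecule is 3 alpha chains wound into a triple helix, either copies of 1 chain or a mixture of related chains. Fibrillar collagens form the ropes of the interstitium, type IV collagen forms the sheet-like network of basement membranes under epithelium and around vessels, and type VI collagen forms beaded filaments between them. In the fetal lung, branching epithelial tubes grow into mesenchyme across a basement membrane that is laid down and remodelled at the tips and clefts. Retinoic acid acts through nuclear receptors that bind DNA as partners of RXR, and its signalling is needed for lung bud formation.

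The libraries held 15207539 to 24146224 gene counts each, and 71.7% to 76.9% of fragments were assigned to genes. Collagen chain genes took 0.950% to 2.34% of these gene counts. Levels are given as CPM, counts scaled to the size of the library, and levels of different genes are compared only as CPM per kilobase of exons. The kilobases are the union of all annotated exons of a gene, which can be longer than its main transcript. Tests used the quasi-likelihood model of edgeR on all 17276 genes that passed a filter on low counts. An adjusted p under 0.05 (Benjamini-Hochberg over all genes tested) made a call, and fold changes are log2 with a standard error (SE). All 44 genes had at least 1 count. The 42 that passed the filter were tested, and Col19a1 (at most 20 counts in a library) and Col10a1 (at most 12) were not. Tissue RNA does not tell a change in the number of cells that make a collagen from a change in RNA per cell.

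The most abundant transcripts were those of the interstitial fibrils. Averaged over all libraries, Col1a1 and Col3a1, which encode the main chains of type I and type III collagen, stood at 398 and 260 CPM per kb. Col4a1, a chain of the basement membrane network in nearly all tissues, followed at 193 CPM per kb, ahead of Col1a2, the partner chain of type I collagen, at 170 CPM per kb. The order of Col4a1 and Col1a2 depends on their exon unions, 7464 and 12426 bases. Type VI chains Col6a1 and Col6a2 reached 116 and 84.4 CPM per kb, and Col4a2, the obligate partner of Col4a1, 105. Col18a1, the basement membrane heparan sulfate proteoglycan from which endostatin is cut, stood at 89.2 CPM per kb. Col1a1, Col1a2 and Col3a1 alone made up 46.5% to 58.5% of the counts of all members.

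Each remaining class had 1 leading gene far below these. Col14a1, a fibril-associated collagen (FACIT) that coats fibrils, reached 28.8 CPM per kb. Col23a1, a transmembrane collagen, stood at 24.3, and Col26a1, a secreted glycoprotein with short collagen stretches, at 6.27. Col8a2, a chain of hexagonal short-chain networks, stood at 3.52 CPM per kb. Col7a1, the anchoring fibril chain of stratified epithelia, stood at 0.504. Col2a1, the cartilage fibril chain, was present at 11.2 CPM per kb. Among tested genes the lowest were Col6a5 (0.257), Col8a1 (0.190) and Col5a3 (0.169 CPM per kb).

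**Figure D1:**
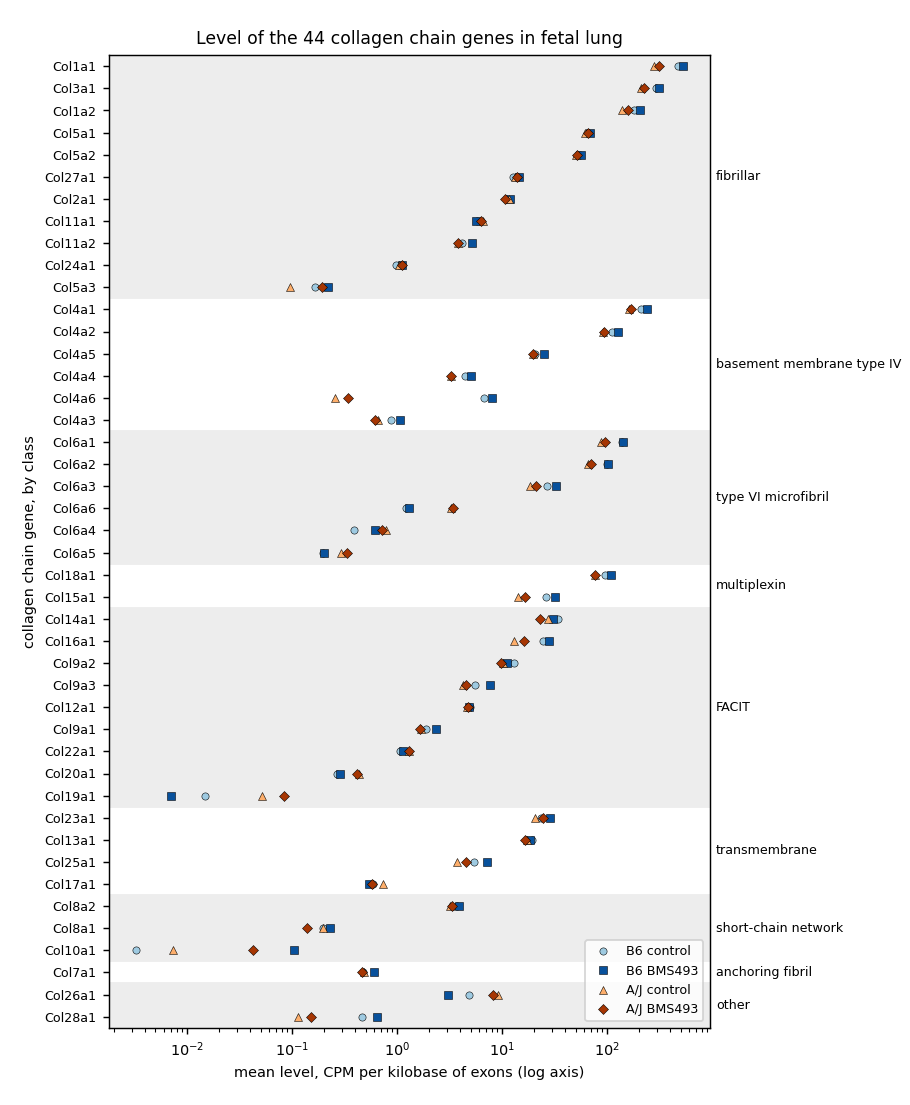
Mean level of each of the 44 collagen chain genes in the 4 groups, in CPM per kilobase of exons on a log axis. Genes are ordered by level within their class, and each symbol is the mean of 4 libraries. Col1a1 leads at 398 CPM per kb over all libraries, and for Col4a6 the A/J symbols lie far left of the B6 symbols.

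The main difference among collagen genes lay between the strains. In control lungs 14 of the 42 genes tested (33.3%) differed between A/J and B6, 3 higher and 11 lower in A/J. Of all genes tested 16.9% were called in this comparison, 7.04% higher and 9.84% lower. The median over the 42 was a log2 fold change of -0.21, against 0.0081 over all genes tested. The 4 A/J libraries did not overlap the 4 B6 libraries for 25 of the 42 genes (59.5%), as for 24.3% of all genes tested.

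In BMS493 lungs 22 of 42 (52.4%) differed, 2 higher and 20 lower in A/J, where 20% of all genes tested were called (7.93% higher, 12% lower). The strains did not overlap for 16 of the 42 genes (38.1%), fewer than in control lungs, as for 19.5% of all genes tested. The median was -0.37, against 0.0032 over all genes. Without B6 BMS493 replicate 3 it was -0.22, with 3 genes called higher and 13 lower. Without A/J control replicate 4 the control median was -0.14, with 3 called higher and 7 lower. With only the groups compared in each fit, 22 genes were called in control and 15 in BMS493 lungs, where 22.6% and 14.3% of all genes tested were called. Which treatment showed more calls thus depended on the fit, for the collagen genes and for all genes. These libraries are separate from the control libraries, and 13 genes were called in both comparisons, which is 92.9% of the 14 and 59.1% of the 22. Col6a4 was the 1 gene called in control lungs and not in BMS493 lungs in the fit of all groups. No collagen gene differed between the strains in its response to BMS493 (edgeR interaction, lowest adjusted p 0.999), and 1 gene, Col6a4, had an unadjusted p under 0.05 (0.0131). For this interaction 0.00579% of all genes tested were called.

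**Figure D2:**
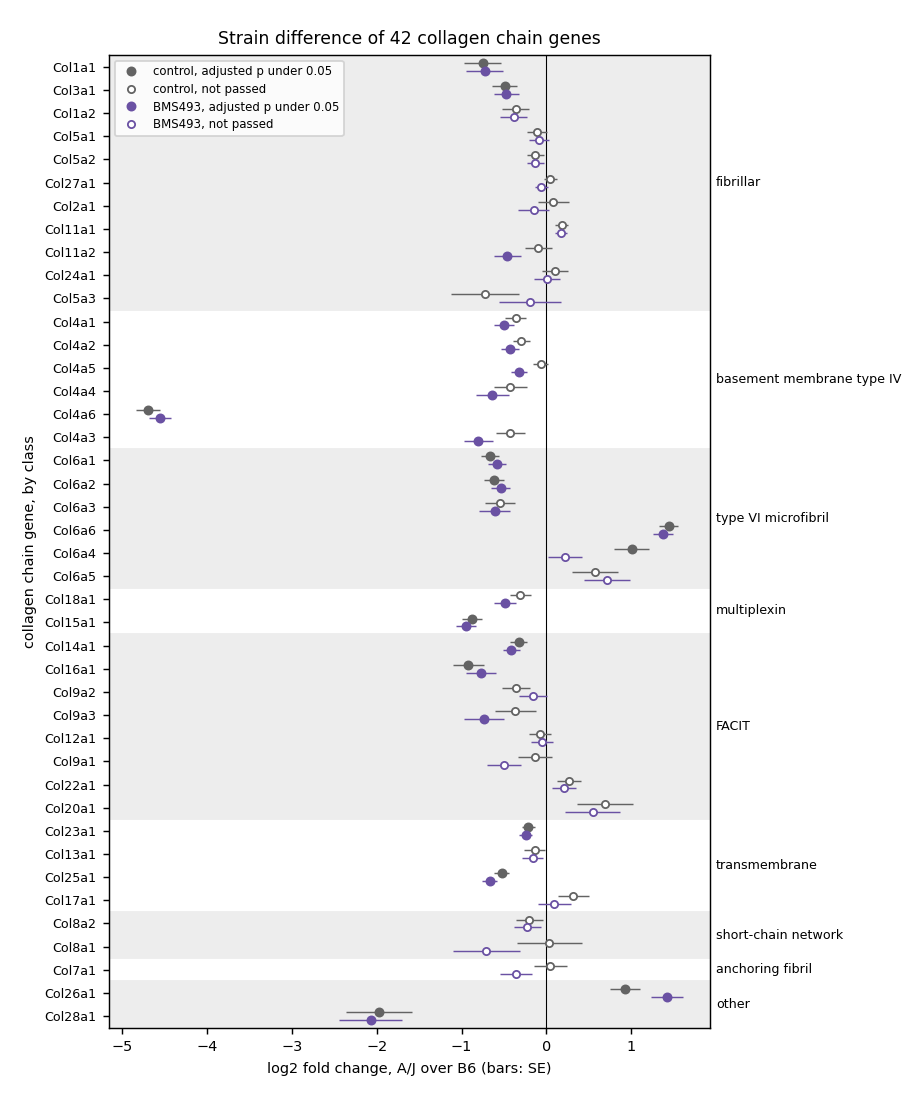
Log2 fold change of A/J over B6 for the 42 tested collagen genes, in control lungs (grey) and in BMS493 lungs (purple), with the SE as a bar. Filled symbols passed an adjusted p under 0.05 in edgeR's test (14 in control and 22 in BMS493 lungs). Col4a6 lies alone near -4.70 and -4.56, and Col6a6 and Col26a1 lie to the right of 0.

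Type IV genes are arranged in head-to-head pairs that share a start region, and their chains assemble in fixed trimers. Col4a6 encodes the chain that joins Col4a5 products in the basement membranes of some epithelia and of smooth muscle, and it showed the largest strain difference of the family. In B6 control libraries 1 to 4 it stood at 53.3, 53.0, 60.1 and 48.7 CPM, and in B6 BMS493 libraries at 57.4, 75.5, 67.7 and 56.2 CPM. In A/J control libraries it stood at 2.31, 2.38, 1.96 and 1.53 CPM, and in A/J BMS493 libraries at 3.15, 2.82, 2.79 and 2.07 CPM. Every A/J library lay far below every B6 library. It still held at least 27 counts in each of them, so the gene was low in A/J and not at 0.

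The fold change of Col4a6 was -4.70 ± 0.136 (SE) in control lungs (26.0-fold lower in A/J, edgeR adjusted p 4.28e-19). In BMS493 lungs it was -4.56 ± 0.131 (23.6-fold, adjusted p 3.15e-19). Its neighbour Col4a5 stood at 136, 134, 144 and 137 CPM in B6 control libraries and at 138, 135, 129 and 123 CPM in A/J control libraries. These ranges overlapped (-0.07 ± 0.090, adjusted p 0.671). The ratio of Col4a5 to Col4a6 per kilobase was 3.05 ± 0.213 (SD, n = 4) in B6 control and 77.9 ± 12.4 in A/J control lungs. With BMS493 it was 3.06 ± 0.213 in B6 and 59.5 ± 10.2 in A/J. The counts were made against the reference genome, which is that of B6, and the part that A/J sequence differences play in alignment was not tested.

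The start regions of this pair are shown because in control lungs 1 gene of the pair was called between strains and the other was not. In BMS493 lungs both were called lower in A/J. Both stretches lie upstream of the outermost RefSeq start of their gene on the mouse reference (GRCm38.p6, B6 sequence). They read 5′ to 3′ on the strand of the gene, with a CCAAT box in capitals where one was found. The A/J sequence was not analysed here.
Col4a5, chrX:141475169-141475369, plus strand: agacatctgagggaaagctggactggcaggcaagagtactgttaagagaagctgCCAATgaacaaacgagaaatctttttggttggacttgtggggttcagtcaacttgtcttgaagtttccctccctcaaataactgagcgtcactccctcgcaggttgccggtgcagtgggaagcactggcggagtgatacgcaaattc
Col4a6, chrX:141474096-141474326, minus strand: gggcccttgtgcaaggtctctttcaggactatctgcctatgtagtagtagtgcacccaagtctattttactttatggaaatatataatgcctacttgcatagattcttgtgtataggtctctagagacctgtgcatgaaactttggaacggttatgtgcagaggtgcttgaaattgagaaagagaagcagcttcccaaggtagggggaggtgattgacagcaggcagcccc

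The RefSeq windows of Col4a5 and Col4a6, 300 bases each around a start, lie 842 bases apart. Those of Col4a1 and Col4a2, which sit head to head on chromosome 8, share 78 bases. The ratio of Col4a1 to Col4a2 per kilobase was 1.87 ± 0.0119 in B6 control and 1.79 ± 0.0492 in A/J control lungs (SD, n = 4), ranges that did not overlap (1.86 to 1.88 and 1.72 to 1.82). In BMS493 lungs the ranges met at 1.80 (1.80 to 2.00 in B6 and 1.76 to 1.80 in A/J). That of Col4a3 to Col4a4, neighbours on chromosome 1, was 0.198 ± 0.00693 and 0.199 ± 0.0211 and overlapped.

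The rest of the type IV class leaned the same way at a smaller size. In control lungs Col4a1 stood at 1615, 1487, 1577 and 1532 CPM in B6 and at 1367, 1309, 1199 and 955 CPM in A/J. The groups did not overlap, yet the difference of -0.36 ± 0.123 just missed the threshold (adjusted p 0.0539), as did that of Col4a2 (-0.29 ± 0.102, adjusted p 0.0531). Each passed in 4 of 9 other settings, both of them with DESeq2, with a replicate block and with only the groups compared. In BMS493 lungs all 6 type IV genes were called lower in A/J, against 1 of 6 in control lungs, a contrast that rests in part on those near misses. Of all genes tested, 12% were called lower in BMS493 and 9.84% in control lungs. In BMS493 lungs Col4a1 was at -0.50 ± 0.123 (adjusted p 0.00811) and Col4a2 at -0.43 ± 0.102 (adjusted p 0.00475). Col4a3 and Col4a4, the chains of the mature glomerular and alveolar network, were at -0.80 ± 0.168 (adjusted p 0.00112) and -0.64 ± 0.197 (adjusted p 0.0344). Col4a5 was at -0.32 ± 0.090 (adjusted p 0.0129), with libraries at 141, 192, 193 and 139 CPM in B6 and at 134, 148, 123 and 126 CPM in A/J that overlapped. No member passed the test of a difference between these strain effects. With only the groups compared in the fit the order of the counts turned, with 5 of 6 called lower in control lungs and 4 of 6 in BMS493 lungs. In these fits 22.6% and 14.3% of all genes tested were called in either direction.

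Type VI collagen split into 2 sets. Its main trimer is made of the chains of Col6a1, Col6a2 and Col6a3, and the chains of Col6a4, Col6a5 and Col6a6 can take the place of the third of these. Col6a1 stood at 616, 586, 621 and 616 CPM in B6 control libraries and at 434, 417, 396 and 288 CPM in A/J control libraries. It stood at 524, 702, 687 and 564 CPM in B6 BMS493 libraries and at 394, 457, 403 and 399 CPM in A/J BMS493 libraries. The A/J libraries were below the B6 libraries under both treatments, with a fold change of -0.67 ± 0.108 in control (adjusted p 0.000204) and -0.58 ± 0.108 in BMS493 lungs (adjusted p 0.000650).

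Col6a2, which adjoins Col6a1 on chromosome 10, followed it closely. It stood at 853, 810, 838 and 839 CPM in B6 control and at 624, 578, 577 and 396 CPM in A/J control libraries (-0.62 ± 0.113, adjusted p 0.000770). In BMS493 lungs it stood at 707, 964, 927 and 796 CPM in B6 and at 571, 641, 558 and 567 CPM in A/J (-0.54 ± 0.113, adjusted p 0.00224). The strains did not overlap under either treatment. The ratio of Col6a1 to Col6a2 per kilobase was 1.39 ± 0.0168 in B6 control and 1.35 ± 0.0377 in A/J control lungs (SD, n = 4). Col6a3 was at -0.55 ± 0.181 in control lungs (adjusted p 0.0553) and passed in BMS493 lungs (-0.61 ± 0.180, adjusted p 0.0295). It passed in control lungs too with DESeq2, with a replicate block, with a floor of 1 on the mean CPM and with only the groups compared.

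The alternative type VI chains pointed the other way. Col6a6 stood at 12.5, 9.01, 11.6 and 11.4 CPM in B6 control and at 33.6, 31.9, 27.3 and 27.5 CPM in A/J control libraries. In BMS493 lungs it stood at 13.6, 10.5, 10.1 and 13.6 CPM in B6 and at 33.6, 32.7, 28.1 and 29.7 CPM in A/J. Every A/J library lay far above every B6 library in both treatments. The fold change was 1.44 ± 0.115 in control (2.72-fold, adjusted p 5.27e-10) and 1.38 ± 0.115 in BMS493 lungs (2.60-fold, adjusted p 1.15e-09).

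Col6a4 was higher in A/J control lungs, at 6.37, 8.27, 6.06 and 6.24 CPM against 3.87, 3.84, 3.12 and 2.49 CPM in B6 (1.00 ± 0.211, adjusted p 0.00122). In BMS493 lungs the strains overlapped, at 4.09, 6.89, 6.61 and 3.27 CPM in B6 and 5.71, 7.30, 4.93 and 6.40 CPM in A/J. Of its counts on both strands, 87.5% were kept in the unstranded count, and other annotated genes overlap it on the opposite strand. A similar share was kept for Col5a1 (88.1%) and Col4a3 (89.1%), which also have overlaps on the opposite strand. Col6a5 did not pass in either treatment (0.57 ± 0.274, adjusted p 0.167 in control and 0.72 ± 0.272, adjusted p 0.0647 in BMS493 lungs). Col6a6, Col6a5 and Col6a4 are neighbours in RefSeq gene order on chromosome 9.

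**Figure D3:**
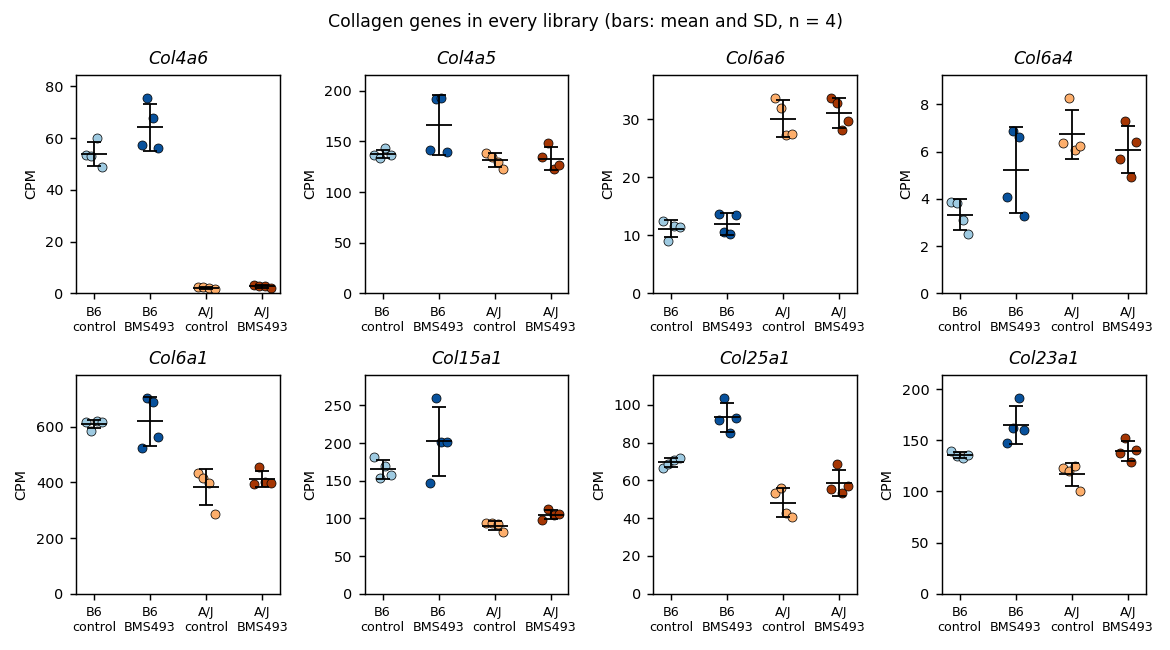
Level in CPM of 8 collagen genes in each of the 16 libraries, with the mean and SD of each group of 4. For Col4a6, Col6a6, Col6a1 and Col15a1 no A/J library reached the range of the B6 libraries of the same treatment, whereas Col4a5 overlapped. All BMS493 libraries lay above the control libraries of their strain for Col23a1, and for Col25a1 in B6, whereas Col25a1 overlapped in A/J.

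The multiplexins, basement membrane proteoglycans whose ends can be cut off as inhibitors of vessel growth, were called lower in A/J for 1 of 2 genes in control and 2 of 2 in BMS493 lungs. Of all genes tested, 9.84% and 12% were called lower in these comparisons. Col15a1 stood at 181, 153, 170 and 158 CPM in B6 control and at 93.2, 93.6, 92.2 and 81.5 CPM in A/J control libraries. With BMS493 it stood at 148, 259, 201 and 201 CPM in B6 and at 98.1, 112, 104 and 106 CPM in A/J. No library overlapped between strains, and the fold change was -0.88 ± 0.116 in control (adjusted p 2.65e-05) and -0.95 ± 0.116 in BMS493 lungs (adjusted p 9.55e-06).

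Col18a1 stood at 693, 654, 667 and 650 CPM in B6 control libraries and at 623, 570, 575 and 387 CPM in A/J control libraries. The groups did not overlap, but the difference of -0.31 ± 0.128 did not pass (adjusted p 0.121). In BMS493 lungs it stood at 639, 887, 842 and 673 CPM in B6 and at 534, 603, 489 and 539 CPM in A/J. That difference passed (-0.49 ± 0.128, adjusted p 0.0123), and not without B6 BMS493 replicate 2 or 3.

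Of the 11 fibrillar genes, 2 were called lower in A/J control lungs and 3 in BMS493 lungs, where 9.84% and 12% of all genes tested were called lower. None was called higher. With only the groups compared in the fit these counts turned, with 3 called lower and 1, Col11a1, higher in control lungs and none called in BMS493 lungs, so Col1a1, Col3a1 and Col11a2 lost their BMS493 calls. Col1a1 stood at 3212, 3031, 3161 and 3047 CPM in B6 control and at 2102, 1950, 1933 and 1406 CPM in A/J control libraries. With BMS493 it stood at 2554, 2659, 5613 and 2840 CPM in B6 and at 1949, 2083, 2077 and 2143 CPM in A/J. The strains did not overlap, and B6 BMS493 replicate 3 stood far above every other library. The fold change was -0.75 ± 0.217 in control (adjusted p 0.0308) and -0.73 ± 0.217 in BMS493 lungs (adjusted p 0.0318). Without that replicate the BMS493 value was -0.38 ± 0.0963 (adjusted p 0.00975).

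Col3a1 differed by -0.49 ± 0.145 in control (adjusted p 0.0307) and -0.47 ± 0.145 in BMS493 lungs (adjusted p 0.0327). Without B6 BMS493 replicate 3 the latter was -0.24 ± 0.0599 (adjusted p 0.00594). Col1a2 did not pass in either (-0.36 ± 0.158, adjusted p 0.142 and -0.39 ± 0.158, adjusted p 0.108). The type I collagen trimer needs 2 chains from Col1a1 for each from Col1a2. The transcript ratio per kilobase depends on exon unions of 6563 bases for Col1a1 and 12426 for Col1a2. Its size thus cannot be set beside that need, but it can be compared between strains. This ratio differed between strains. It was 2.65 ± 0.0576 in B6 control lungs (2.58 to 2.71) and 2.02 ± 0.142 in A/J control lungs (1.81 to 2.11; SD, n = 4). It was 2.49 ± 0.267 in B6 BMS493 and 2.00 ± 0.0261 in A/J BMS493 lungs, and the strains did not overlap under either treatment. Col5a1 and Col5a2, chains that set fibril diameter, did not pass in either comparison. The cartilage chains Col2a1 and Col11a1 did not pass either. Col11a2, another cartilage chain, was at -0.10 ± 0.159 in control (adjusted p 0.743) and was called in BMS493 lungs (-0.46 ± 0.158, adjusted p 0.0478). That call was lost with the first strand column, with the library set as a covariate and with only the groups compared. Without B6 BMS493 replicate 3 the value was -0.25 ± 0.112 (adjusted p 0.130).

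Among the 8 FACIT genes tested, Col16a1 and Col14a1 were called lower in A/J in both comparisons. Col16a1, which links fibrils to cells and microfibrils, stood at 175, 164, 165 and 162 CPM in B6 control and at 98.7, 96.0, 98.0 and 58.0 CPM in A/J control libraries. With BMS493 it stood at 149, 165, 265 and 169 CPM in B6 and at 104, 107, 108 and 117 CPM in A/J. The strains did not overlap (-0.92 ± 0.180, adjusted p 0.00267 in control and -0.77 ± 0.179, adjusted p 0.00719 in BMS493 lungs).

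Col14a1 stood at 242, 233, 253 and 232 CPM in B6 control and at 207, 202, 184 and 171 CPM in A/J control libraries (-0.33 ± 0.101, adjusted p 0.0287). With BMS493 it stood at 186, 225, 243 and 209 CPM in B6 and at 172, 179, 122 and 176 CPM in A/J (-0.41 ± 0.101, adjusted p 0.00610). The groups did not overlap under either treatment. Col9a3, a chain of the cartilage FACIT type IX, was at -0.37 ± 0.241 in control (adjusted p 0.346) and was called in BMS493 lungs (-0.74 ± 0.238, adjusted p 0.0418). That call held in 4 of 9 other settings, and with only the groups compared Col9a3 passed in control and not in BMS493 lungs. Without B6 BMS493 replicate 3 the BMS493 value was -0.45 ± 0.176 (adjusted p 0.0889).

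The transmembrane collagens Col25a1 and Col23a1 were lower in A/J in both comparisons. Col25a1, a neuronal and muscle surface collagen that is shed from the membrane, stood at 66.5, 68.9, 71.0 and 71.8 CPM in B6 control and at 53.1, 56.2, 42.5 and 40.6 CPM in A/J control libraries. The strains did not overlap (-0.53 ± 0.094, adjusted p 0.000230 in control and -0.67 ± 0.092, adjusted p 8.66e-06 in BMS493 lungs). Col23a1 differed by -0.22 ± 0.075 in control (adjusted p 0.0497) and -0.24 ± 0.075 in BMS493 lungs (adjusted p 0.0220). The control call held in 3 of 9 other settings. It was lost with DESeq2, RLE scaling, the first strand column, the library set as a covariate, a floor of 1 on the mean CPM and with B6 BMS493 replicate 3 and A/J control replicate 4 both left out (adjusted p 0.0515 to 0.0669). It was also lost when any control library but A/J replicate 3 was left out (adjusted p 0.0566 to 0.199). Col13a1, found at cell junctions, and Col17a1, the hemidesmosome collagen, did not pass.

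The remaining pair moved in opposite directions. Col26a1 stood at 41.1, 41.4, 39.5 and 35.0 CPM in B6 control and at 75.5, 80.0, 77.9 and 65.2 CPM in A/J control libraries (0.93 ± 0.182, adjusted p 0.00235). With BMS493 it stood at 32.6, 14.2, 29.8 and 23.3 CPM in B6 and at 74.3, 54.5, 65.8 and 70.4 CPM in A/J (1.42 ± 0.188, adjusted p 7.47e-05). Every A/J library lay above every B6 library of the same treatment.

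Col28a1, a collagen of the peripheral nerve surface, was close to the limit of these libraries, with 6 to 107 counts. It stood at 2.06, 1.90, 2.03 and 3.02 CPM in B6 control and at 0.531, 0.563, 0.638 and 0.511 CPM in A/J control libraries (-1.98 ± 0.392, adjusted p 0.000716). With BMS493 it stood at 1.57, 4.52, 3.14 and 3.45 CPM in B6 and at 0.278, 1.5, 0.791 and 0.403 CPM in A/J (-2.07 ± 0.368, adjusted p 0.000186). The strains did not overlap under either treatment.

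The leading genes of the last classes did not differ between strains beyond their spread. Col8a2 stood at 15.8, 19.0, 16.7 and 14.7 CPM in B6 control and at 15.9, 14.6, 14.4 and 12.5 CPM in A/J control libraries. Col7a1 stood at 4.28, 4.83, 4.60 and 5.64 CPM in B6 control and at 5.02, 5.93, 5.15 and 3.69 CPM in A/J control libraries. Both ranges overlapped, and neither gene passed in BMS493 lungs, where both were highest in B6 replicate 3, at 27.0 and 9.08 CPM.

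Over all comparisons 23 of the 42 genes tested were called at least once and 19 were not. The share of all genes called at least once was not counted, so these numbers only account for the members. The 19 were Col1a2, Col2a1, Col5a1, Col5a2, Col5a3, Col11a1, Col24a1 and Col27a1 of the fibrillar class, Col9a1, Col9a2, Col12a1, Col20a1 and Col22a1 of the FACIT class, and Col6a5, Col7a1, Col8a1, Col8a2, Col13a1 and Col17a1.

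The strain calls were not equally firm. Of the 14 calls in control lungs, 10 held when any 1 library was left out: Col4a6, Col6a6, Col15a1, Col6a1, Col25a1, Col28a1, Col6a2, Col6a4, Col26a1 and Col16a1. The other 4 were lost without A/J control replicate 4, where Col1a1 had an adjusted p of 0.0921, Col3a1 0.105, Col14a1 0.113 and Col23a1 0.199. They were also lost without B6 control replicate 1 or 3. Without B6 control replicate 2 or 4, or A/J control replicate 2, Col1a1, Col3a1 and Col23a1 were lost. Col23a1 was further lost without A/J control replicate 1, and Col1a1 and Col14a1 without A/J control replicate 3.

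Of the 22 calls in BMS493 lungs, 13 held in every such fit. Those of Col1a1 and Col3a1 were lost without any 1 of the 4 A/J BMS493 libraries (adjusted p up to 0.0783 and 0.0746). Those of Col4a4, Col6a3, Col9a3 and Col11a2 were lost without B6 BMS493 replicate 2 or 3 or A/J BMS493 replicate 1, 3 or 4, and those of Col9a3 and Col11a2 also without A/J BMS493 replicate 2. Col4a5 was lost without B6 BMS493 replicate 2 or 3 or A/J BMS493 replicate 3 or 4, and Col23a1 without B6 BMS493 replicate 3 or A/J BMS493 replicate 1 or 3.

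Markers of several cell types of the lung also differed between strains. Of all genes tested, 9.84% were called lower in A/J and 7.04% higher in control lungs, and 12% and 7.93% in BMS493 lungs. Of 7 endothelial markers, 6 were called lower in A/J control and 7 in A/J BMS493 lungs, and their summed level was 1204 to 1305 CPM in B6 control and 871 to 1051 CPM in A/J control libraries. Of 6 lung epithelial markers, 3 and 4 were called lower, with sums of 1002 to 1133 CPM and 627 to 789 CPM in control libraries. Of 6 cartilage markers tested, 3 were called lower in each comparison, with sums of 188 to 240 CPM and 172 to 191 CPM in control libraries. The 7 lung mesenchyme markers summed to 949 to 990 CPM in B6 control and 937 to 1029 CPM in A/J control libraries, with 2 called lower. Of 5 Schwann and neural crest markers, 2 were called higher in A/J in each comparison, with sums of 91.9 to 98.2 CPM and 83.1 to 108 CPM in control libraries. Erythroid markers summed to 482 to 603 CPM in B6 control and 616 to 1022 CPM in A/J control libraries, with 1 of 5 called higher in control and 0 in BMS493 lungs. Macrophage markers summed to 95.1 to 108 CPM and 112 to 124 CPM in control libraries, with 1 of 5 called higher in control and 3 in BMS493 lungs. The part of cell makeup in the collagen differences was not tested.

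BMS493 changed few collagen genes. In B6, 1 of 42 genes was called (2.38%), against 0.423% of all genes tested (0.0752% higher, 0.347% lower). None was called in A/J, where 0.486% of all genes were. By edgeR, 5 of the 42 had an unadjusted p under 0.05 in A/J, and by DESeq2 none was called either. On the mean of both strains 2 of 42 were called (4.76%), both higher, where 1.37% of all genes were called, 0.278% higher and 1.09% lower. The median log2 fold change over the 42 was 0.18 in B6 and 0.05 in A/J, against 0.0070 and -0.0019 over all genes tested. Positive values were found for 35 of 42 genes in B6 and for 27 in A/J. Without B6 BMS493 replicate 3 the B6 median was 0.07, with 24 positive, and without A/J control replicate 4 the A/J median was -0.02, with 17 positive. These comparisons share no libraries between strains.

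**Figure D4:**
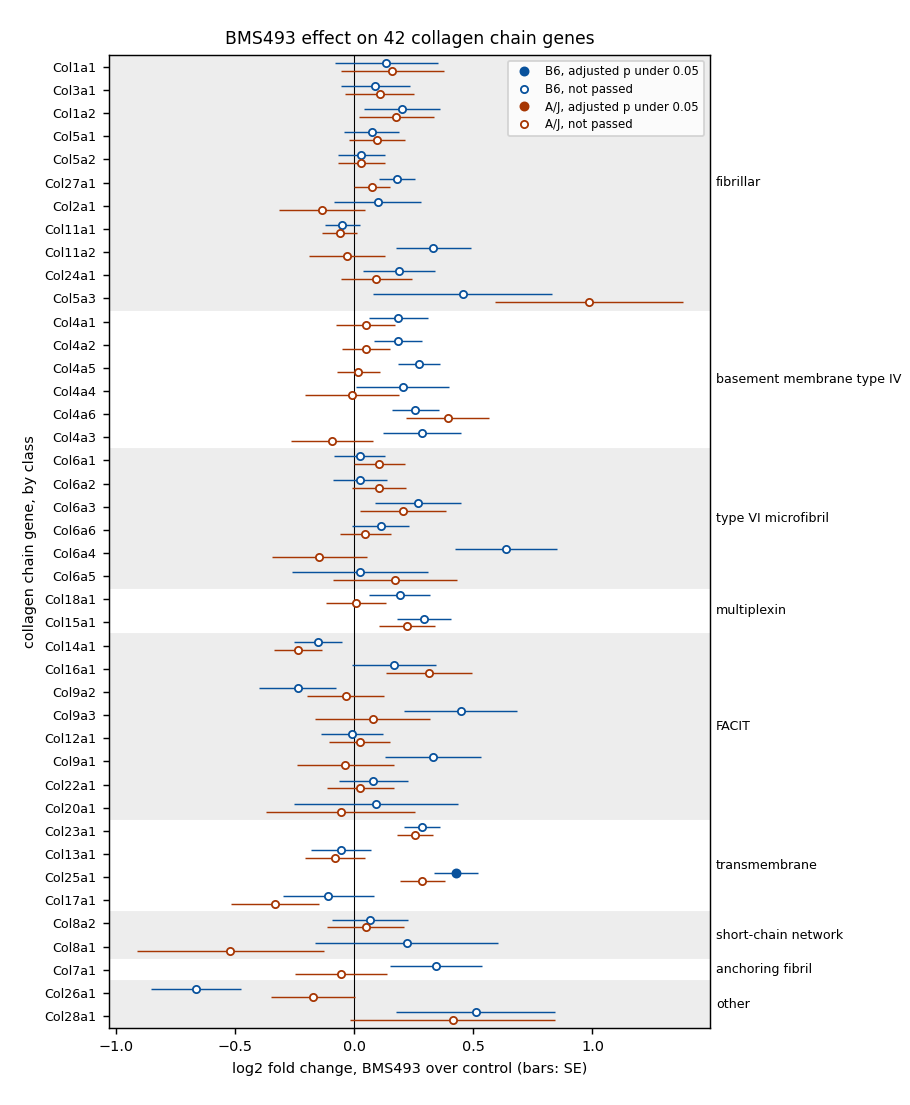
Log2 fold change of BMS493 over control for the 42 tested collagen genes in B6 (blue) and A/J (brown), with the SE as a bar. The only filled symbol is Col25a1 in B6 at 0.43; Col25a1 and Col23a1 lie to the right of 0 in both strains, and most other bars span or approach 0.

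Col25a1 rose with BMS493 in B6. Against the B6 control libraries at 66.5 to 71.8 CPM, the B6 BMS493 libraries stood at 91.8, 104, 85.1 and 93.1 CPM. The groups did not overlap, and the fold change was 0.43 ± 0.092 (1.34-fold, edgeR adjusted p 0.0349). In A/J it stood at 55.6, 68.7, 53.4 and 57.1 CPM with BMS493, which overlapped the control range of 40.6 to 56.2 CPM (0.29 ± 0.094, adjusted p 0.327). The mean of both strains was 0.36 ± 0.066 (adjusted p 0.00322), and it passed in each of the 16 fits that left out 1 library. The B6 call was lost without any 1 of the B6 control libraries and without B6 BMS493 replicate 2 or 4 (adjusted p up to 0.142).

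Col23a1, another member of the same transmembrane class, passed on the mean of both strains. It stood at 140, 135, 133 and 135 CPM in B6 control and at 148, 162, 191 and 160 CPM in B6 BMS493 libraries. In A/J it stood at 123, 120, 125 and 100 CPM in control and at 137, 152, 128 and 140 CPM in BMS493 libraries. Every BMS493 library lay above every control library of its strain. The fold change was 0.28 ± 0.075 in B6 (adjusted p 0.114) and 0.26 ± 0.075 in A/J (adjusted p 0.199), and 0.27 ± 0.053 on their mean (1.21-fold, adjusted p 0.00541). The mean passed in each of the 16 fits that left out 1 library. The other transmembrane collagens did not follow, at -0.07 ± 0.090 for Col13a1 on the mean of both strains, and no member of the class passed in A/J alone.

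Other members leaned without passing. Col26a1 did not overlap between B6 control and B6 BMS493 libraries, with a fold change of -0.66 ± 0.190 (adjusted p 0.234). Col27a1, a cartilage fibril chain, did not overlap in B6 either (0.18 ± 0.075, adjusted p 0.464), but stood at 232 CPM in B6 BMS493 replicate 3 against 172 to 175 CPM in the rest of that group. Without that library it was at 0.06 ± 0.0543 (adjusted p 0.819). Counting Col25a1 and Col23a1, 4 of 42 genes (9.52%) did not overlap in B6, as for 4.71% of all genes tested. In A/J these were Col23a1, Col15a1 and Col16a1, 3 of 42 (7.14%), as for 4.87% of all genes tested. Col4a6 was at 0.26 ± 0.10 in B6 and 0.39 ± 0.174 in A/J (adjusted p 0.404 and 0.709).

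Among the 4 groups, B6 BMS493 varied most in the summed level of the fibrillar genes, and replicate 3 was its high library there. The fibrillar genes summed to 9548 to 9905 CPM in B6 control libraries and to 8324 to 15921 CPM in B6 BMS493 libraries. Replicate 2 was instead the highest of the group for type VI genes (2180 CPM, against 2058 CPM in replicate 3) and for multiplexins (1146 against 1043 CPM). Col3a1 stood at 4482 CPM in B6 BMS493 replicate 3 and at 2458 to 2655 CPM in the rest of its group. Beside this, cartilage markers summed to 202, 211, 207 and 202 CPM in B6 BMS493 libraries 1 to 4, and skeletal muscle markers to 3.53, 4.78, 2.40 and 5.51 CPM. Heart muscle markers summed to 7.88, 31.5, 37.5 and 13.7 CPM, where B6 control libraries held 19.8 to 29.8 CPM, and erythroid markers to 591, 368, 737 and 614 CPM. Both were highest in replicate 3, whereas lung epithelial markers, at 992, 2002, 1465 and 1077 CPM, were highest in replicate 2. Among the heart muscle markers Nppa had no counts in any group. The part of other tissue in these levels was not tested.

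Leaving out replicate 3 turned 12 of the 42 BMS493 effects in B6 from positive to negative and 1 from negative to positive, none of them called. Col1a1 was among the 12. With all libraries its BMS493 effect in B6 was 0.13 ± 0.215, and without that replicate it was -0.22 ± 0.0971 (adjusted p 0.544). The 3 remaining B6 BMS493 libraries, at 2554 to 2840 CPM, all lay below the B6 control libraries, at 3031 to 3212 CPM. Col3a1 turned likewise, from 0.09 ± 0.145 to -0.16 ± 0.0603 (adjusted p 0.406). A/J control replicate 4 was the lowest library of its group for Col1a1 (1406 CPM) and for many other members. With both of these libraries left out, a choice made after the values were seen, the effect of Col1a1 in B6 was -0.21 ± 0.0469 and that of Col9a2, a type IX chain, -0.43 ± 0.0798. On the mean of both strains Col13a1 was at -0.20 ± 0.0414. These values are a description only, because 1 of the libraries left out stood apart from its group for each of these genes. In the same fit 24 of 42 effects in B6 and 17 of 42 in A/J were positive, with medians of 0.08 and -0.01, so in A/J most effects were negative.

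**Figure D5:**
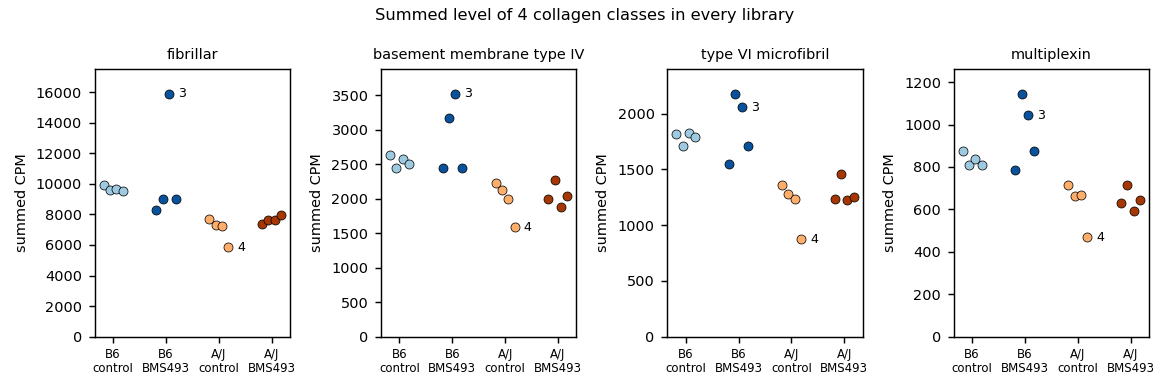
Summed level in CPM of the fibrillar, type IV, type VI and multiplexin genes in each library. The digits mark B6 BMS493 replicate 3 and A/J control replicate 4. Replicate 3 reaches 15921 CPM for fibrillar genes, where its group starts at 8324 CPM, and replicate 4 is the lowest A/J library in all 4 panels.

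Genes that fold, trim, cross-link and bind collagens were examined from lists of pathway members. In A/J control lungs 6 of 13 tested genes for procollagen trimming and cross-linking were called lower and none higher, with a median of -0.25. Of all genes tested, 9.84% were called lower and 7.04% higher in this comparison. Lox, the oxidase that starts collagen and elastin cross-links, stood at 491 ± 22.4 CPM in B6 control and 227 ± 7.33 CPM in A/J control lungs (SD, n = 4). It differed by -1.11 ± 0.084 (adjusted p 3.74e-10). Adamts2, which removes the amino-terminal propeptide of fibrillar procollagens, differed by -0.83 ± 0.109 (adjusted p 5.04e-06). Pcolce2, an enhancer of carboxyl-terminal trimming, differed by -0.54 ± 0.129 (adjusted p 0.00397), and Pxdn, the peroxidase that cross-links type IV collagen, by -0.25 ± 0.057 (adjusted p 0.00277).

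Small leucine-rich proteoglycans, which bind fibrils and regulate their assembly, were called lower in A/J control lungs for 7 of 8 tested genes. Their median was -0.60, and 9.84% of all genes tested were called lower in this comparison. Aspn was at -1.77 ± 0.391 (adjusted p 0.00559), Ogn at -0.85 ± 0.102 (adjusted p 1.30e-06), Dcn at -0.62 ± 0.087 (adjusted p 9.51e-06) and Fmod at -0.53 ± 0.097 (adjusted p 0.000579). In BMS493 lungs 4 were called lower and 1 higher, where 12% of all genes tested were called lower and 7.93% higher. The one higher was Lum (0.48 ± 0.107, adjusted p 0.00223).

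This group also held most of the pathway genes that fell with BMS493. Dcn, the main fibril-coating proteoglycan, stood at 94.8 ± 3.07 CPM in B6 control and 54.5 ± 7.30 CPM in B6 BMS493 lungs (SD, n = 4). It fell by 0.80 ± 0.088 in B6 (adjusted p 2.46e-05), and the mean of both strains fell by 0.53 ± 0.062 (adjusted p 9.18e-06). Lum fell in B6 from 35.2 ± 2.37 to 21.9 ± 4.03 CPM (-0.68 ± 0.107, adjusted p 0.00190). Ogn fell in A/J from 46.3 ± 3.11 to 30.0 ± 3.24 CPM (-0.63 ± 0.105, adjusted p 0.00232). No difference between strains in these responses passed.

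Only 2 other pathway genes were called with BMS493. Loxl2, which oxidises type IV collagen, stood at 106 ± 2.78 CPM in B6 control and 88.0 ± 10.7 CPM in B6 BMS493 lungs, and at 111 ± 2.78 and 89.8 ± 3.30 CPM in A/J. It fell by 0.29 ± 0.048 on the mean of both strains (adjusted p 0.000841) and by 0.30 ± 0.067 in A/J (adjusted p 0.0306), and the A/J call held in 1 of 8 fits that left out a library. Mmp2, a gelatinase, fell by 0.23 ± 0.052 on the mean of both strains (adjusted p 0.0234), a call that held in 7 of 16 such fits. Of 17 genes for chain modification and folding and of 16 laminins and other basement membrane partners, none was called with BMS493 in either strain or on the mean. Smooth muscle markers moved with BMS493, with 3 of 7 called lower on the mean of both strains, where 1.09% of all genes tested were called lower. These markers summed to 1100 to 1171 CPM in B6 control and 899 to 1085 CPM in B6 BMS493 libraries. Their part in these falls was not tested.

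Of the 17 folding genes 3 were called between strains in control lungs, a share near the 16.9% of all genes tested. P3h1, a prolyl 3-hydroxylase, was at -0.62 ± 0.070 (adjusted p 2.92e-07) and Serpinh1, the collagen chaperone, at -0.32 ± 0.060 (adjusted p 0.000392). Plod1, a lysyl hydroxylase, was at 0.35 ± 0.072 (adjusted p 0.000967). Of 8 receptors tested, 3 were called lower and 2 higher in control lungs, where 9.84% of all genes tested were called lower and 7.04% higher. Ddr1, the epithelial collagen receptor kinase, was lower (-0.62 ± 0.078, adjusted p 1.62e-06), and so were the integrin chains Itga2 (-0.51 ± 0.117, adjusted p 0.00376) and Itga10 (-0.89 ± 0.223, adjusted p 0.00584). Ddr2, its mesenchymal counterpart, was higher (0.29 ± 0.064, adjusted p 0.00200).

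Among 8 breakdown genes tested, Timp3, a matrix-bound protease inhibitor, was higher in A/J control lungs (0.49 ± 0.092, adjusted p 0.000538). Mmp14, a membrane collagenase, was lower (-0.27 ± 0.063, adjusted p 0.00307). Of the basement membrane partners, 3 of 16 were called lower and 1 higher in control lungs (median -0.10), and 9 lower and 1 higher in BMS493 lungs (median -0.29). Of all genes tested, 9.84% were called lower in control and 12% in BMS493 lungs. In control lungs Nid1, which bridges laminin and type IV collagen, was at -0.47 ± 0.086 (adjusted p 0.000362), Sparc, a collagen-binding protein, at -0.41 ± 0.081 (adjusted p 0.000714) and Lama4, a laminin chain of vessels, at -0.27 ± 0.079 (adjusted p 0.0194). Lama1, the early embryonic laminin chain, was at 0.43 ± 0.089 (adjusted p 0.00105).

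Start regions were searched for the 6-base site AGGTCA bound by retinoid receptors (both strands) because the treatment acts on these receptors. RefSeq gave windows for 35 of the 44 genes, 38 windows in all, each from 250 bases before to 50 bases after a start. The site was in 8 of 38 member windows (21.1%) and in 16.3% of 32851 windows of all genes. A GC box (GGGCGG) was in 60.5% of member windows and 35.7% of all windows, and a CCAAT box in 34.2% and 37.4%. Of the genes called with BMS493, Col23a1 held 1 such site, 215 bases before the start of its window's transcript, and Col25a1 held none.
Col23a1, chr11:51289695-51289720 (GRCm38.p6), plus strand, site in capitals: agtgtcagaaAGGTCAatctacaagc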

How the data were processed

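The authors deposited whole-number counts per gene, 1 file per library, per the file headers and values: a column that ignores strand and a column for either strand. The submitters' processing notes name FastQC, cutadapt, STAR and the build GRCm39; the annotation is not given in the sources used here. The first strand held 51.0% to 52.0% of stranded counts, so the column that ignores strand was used. Names, gene types and exon lengths came from GENCODE M21, which matched 51933 of 57180 identifiers (98.7% to 99.2% of counts); sequences came from RefSeq (GRCm38.p6).

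Genes were filtered with filterByExpr, scaled by TMM and fitted with the robust quasi-likelihood test of edgeR 4.0.16 (R 4.3.3) on 16 libraries, with 1 coefficient per group. The p-values are two-sided, adjusted by Benjamini-Hochberg over 17276 genes. The fit was tested on simulated data. CPM used TMM-scaled totals; Python 3.11.15 and pandas 2.3.3 made the tables. All 24 within-group pairs of libraries differed by more than counting error, and those with B6 BMS493 replicate 3 differed most. Deviations of libraries with the same replicate number correlated only weakly (-0.15 to 0.15), so no block was used in the main fit. Alternatives were RLE scaling, DESeq2 1.42.0, no filter, only the groups compared, a floor of 1 on the mean CPM, a replicate block, the library set (numbers 1 to 8 against 9 to 16) as a covariate, the first strand column and each library left out.

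The members and gene lists were chosen with earlier results of these data known. Values in every library are printed for genes called with BMS493, the 10 smallest adjusted p among strain calls in control lungs and the leading gene of each class, with others added where a result turns on them. Of the pathway lists, genes called with BMS493 and up to 4 per list by strain are named.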

Additional observations from a re-analysis of the deposited data

Results flagged for a closer look

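In 20 of 168 sets of 4 libraries (42 genes in 4 groups), 1 library stood apart from the other 3. Its gap to the nearest library, as a share of the group's whole range, was over the 95% critical value of Dixon's test for 4 values. Chance gives such a gap in about 1 of 20 sets, and genes of 1 library are not independent. B6 BMS493 replicate 3 was high in 7 sets, with shares for Col3a1 (0.903), Col5a2 (0.867), Col5a1 (0.882), Col27a1 (0.96), Col8a2 (0.855), Col13a1 (0.911) and Col1a1 (0.906). Col1a1 stood there at 5613 CPM against 2554 to 2840 CPM. A/J control replicate 4 was low in 4 sets, Col9a3 (0.958), Col15a1 (0.881), Col9a2 (0.94) and Col16a1 (0.932). Col16a1 stood there at 58.0 CPM against 96.0 to 98.7 CPM. A/J BMS493 replicate 2 stood apart in 4 sets, low for Col9a1 (0.839) and high for Col5a3 (0.857), Col6a2 (0.849) and Col6a1 (0.861). The other sets were Col28a1 (0.855) in B6 control replicate 4, Col6a1 (0.864) in B6 control replicate 2, Col12a1 (0.879) in B6 BMS493 replicate 2, Col6a4 (0.86) in A/J control replicate 2 and Col14a1 (0.869) in A/J BMS493 replicate 3.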

How the results depend on the processing

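No called collagen gene changed direction under the alternatives run; of the BMS493 effects in B6 that were not called, 12 turned from positive to negative and 1 from negative to positive without B6 BMS493 replicate 3. The counts of called genes kept within 1.5 times of the reported ones except as follows. The B6 count of 1 became 0 with the first strand column, 4 without a filter on low counts, 3 with both outlying libraries left out and 0 to 4 with 1 library left out. The A/J count of 0 became 2 without a filter. The count of 2 on the mean of both strains became 6 without a filter, 4 with both outlying libraries left out and 2 to 4 with 1 library left out. Both libraries were picked on collagen values, so the calls added without them carry no support. B6 BMS493 replicate 3 stood apart beyond the collagen genes too. Over genes with 20 or more counts in a pair, its mean squared difference over counting error was 24.1 to 30.7 within its group. It was 3.51 to 18.8 for all other within-group pairs. The strain count in control lungs, 14, became 22 with only the groups compared and ranged from 10 to 16 with 1 library left out. The strain count in BMS493 lungs, 22, became 15 with only the groups compared, so the order of the strain counts turned in that setting, and it ranged from 15 to 24 with 1 library left out. With a replicate block the counts were 1 in B6, 0 in A/J, 2 on the mean, 0 for the interaction, 17 for strain in control and 21 in BMS493 lungs. The labels do not say that a number marks a shared litter; same-number libraries correlated at -0.15 to 0.15, 3 of 24 pairs passed 0.1, and 7 of 16 libraries correlated best with their own number. The cause of these shifts was not tested. Genes under about 1 CPM, such as Col5a3 and Col28a1 in A/J, rest on few counts.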
